A study of Rattus rattus with 8 samples.

Results

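Apolipoproteins are the proteins that coat plasma lipoproteins. The 10 genes described here encode 9 of them, Apoa1, Apoa2, Apoa4, Apoa5, Apob, Apoc1, Apoc2, Apoc3 and Apoe, and Mttp, the microsomal protein that loads lipid onto apolipoprotein B. They were chosen by name, by an exact match to the gene symbols of the array's probe table. All 10 were found there, with 28 of the 45904 named features (spots that carry a probe), and all 10 were among the 10944 genes measured well enough to be tested, of 16945 genes with a symbol. The samples were livers of male rats of the WH strain. The 4 NaPB rats had eaten a diet with 2500 ppm sodium phenobarbital (NaPB), a barbiturate that induces drug metabolism in the liver, for 7 days, and the 4 control rats a diet with 0 ppm for 7 days. No allele, transgene or second agent is named for either group, and the labels give no age. The labels give 4 animals per dose, and each sample was measured on 1 single-colour Agilent array.

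The liver packs triglyceride and cholesterol ester around apolipoprotein B in the endoplasmic reticulum and secretes the product as very-low-density lipoprotein (VLDL). It also secretes apolipoprotein A-I, around which high-density lipoprotein (HDL) forms. The small exchangeable apolipoproteins move between particles in plasma and set how fast lipoprotein lipase removes triglyceride and how fast the liver takes up the remnants. In rats, apolipoprotein A-IV is made by the liver as well as by the intestine.

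The arrays were alike. Over the genes tested, log2 values of any pair of arrays correlated at 0.989 to 0.992 within the NaPB group, at 0.991 to 0.993 within the control group and at 0.981 to 0.985 between groups; these are correlations across genes, which are not independent replicates. Intensities below are relative to the 75th percentile of the named features of the array (scaled intensity). Cyp2b2, a drug-metabolizing P450 that phenobarbital induces, averaged 129 ± 12.5 in NaPB livers and 5.36 ± 0.88 in control livers (SD, n = 4 each), and its groups did not overlap. The threshold throughout was a limma p of 0.05 after Benjamini-Hochberg adjustment over all genes tested. Of the 10944 genes, 1144 passed it, or 10.5%. Those higher in NaPB livers made up 6.16% and those lower 4.29%. With the arrays brought to the same median, 41.3% of the changed genes were higher, against 58.9% with the scaling used here.

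Of the 10 genes, 2 fell with NaPB and none rose. The 2 were Apoa4 and Apoc3, neighbours in one apolipoprotein gene cluster, and they were also the only ones of the 10 whose groups did not overlap. Lower calls made up 4.29% of all genes tested. In 8.36% of them all NaPB livers lay below all control livers, and in 19.1% the groups did not overlap in either direction. No test was made of the 10 genes as a list. The estimates of the other 8 lay between -0.47 and 0.20 on the log2 scale, with Apoa2 the only positive one. Thus 9 of the 10 genes had a negative estimate, where 49.8% of all genes tested did. The median over the 10 was -0.19, beside 0.0015 over all genes tested. Among 182 other genes with a mean scaled intensity of at least 50, a level that 9 of the 10 genes reached, the median was -0.04, 56.0% had a negative estimate, 9.34% were called lower and 9.89% higher. Among the 66 others at 100 or more, a level that 7 of the 10 genes reached, the median was -0.10 and 72.7% were negative. Of these 66, 4.55% were called lower and 4.55% higher. All 10 hepatocyte marker genes, none of them an apolipoprotein, also had negative estimates, with a median of -0.20, and 2 of them fell. The negative estimates were thus not shown to be particular to the apolipoprotein genes. In whole liver, fewer cells of a type and less RNA per cell cannot be told apart.

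**Figure D1:**
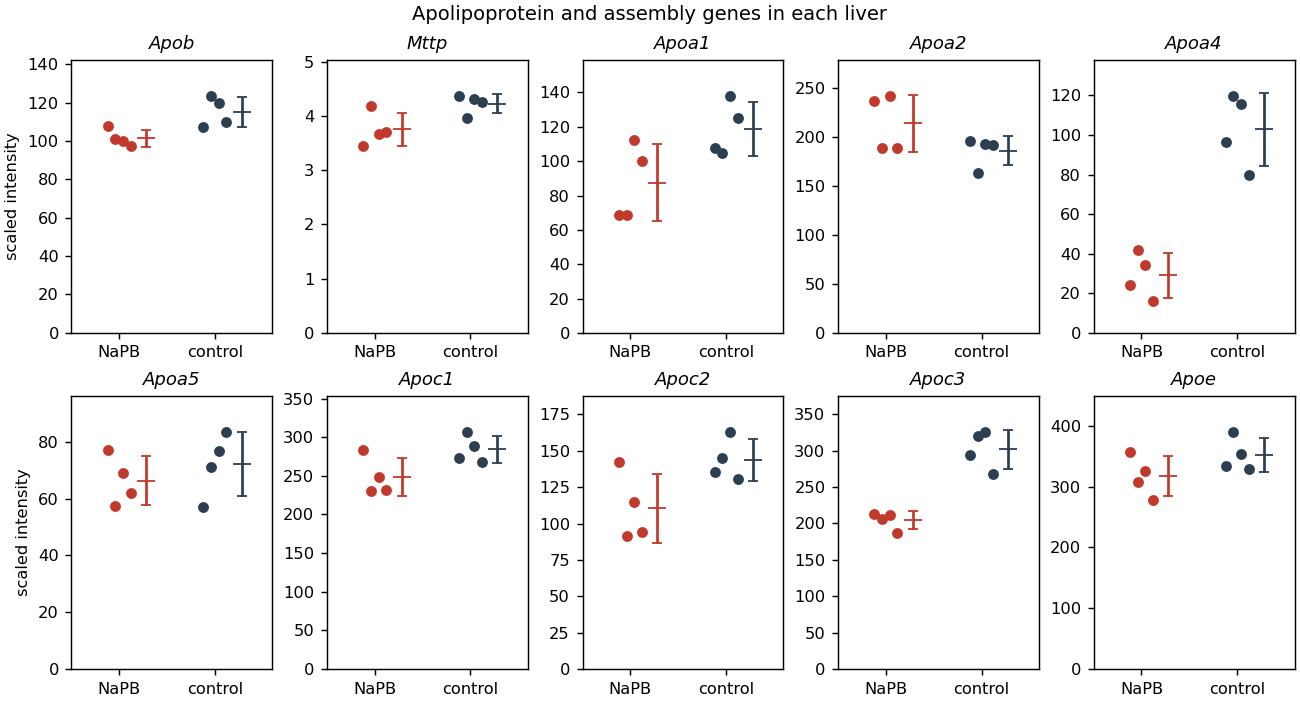
Scaled intensity (linear axis from 0, a separate scale for each gene) of the 10 genes in each liver, NaPB left and control right. Each point is 1 rat, in the order of replicates 1 to 4, and the bar beside the points is the mean ± SD (n = 4). Apoa4 and Apoc3 are the 2 genes whose groups do not overlap.

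Apob and Mttp are the pair on which VLDL assembly depends. Apob, the structural protein of which each VLDL particle holds a single copy, had scaled intensities of 107.6, 101, 99.8 and 97.4 in NaPB livers (replicates 1 to 4, here and below), against 107.3, 124, 119.8 and 109.7 in control livers. NaPB replicate 1 was the only liver of its group that reached the control range. The log2 change was -0.18 ± 0.08, where the error of a log2 change is its standard error (n = 4 per group throughout), with a 95% interval from -0.35 to -0.01, and it did not pass after adjustment over all genes (limma, adjusted p = 0.169).

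Mttp had 3.45, 4.18, 3.67 and 3.70 in NaPB livers, against 4.37, 3.96, 4.30 and 4.26 in control livers. Here NaPB replicate 2 lay within the control range and the other NaPB livers below it. Its change of -0.17 ± 0.08 (95% interval -0.36 to 0.01) did not pass either (adjusted p = 0.208). With this scaling, average losses of Apob or Mttp signal larger than 0.35 and 0.36 on the log2 scale lay outside the 95% intervals. These bounds depend on the scaling. With the arrays at the same median the estimates were more negative, at -0.24 ± 0.08 for each gene.

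Among the HDL proteins, Apoa1, which activates the plasma enzyme that esterifies cholesterol, had 68.7, 68.8, 112.6 and 100.1 in NaPB livers, against 107.7, 104.7, 138 and 125 in control livers. The NaPB livers split, with replicates 1 and 2 well below every control, replicate 4 just beneath the control range and replicate 3 within it. Its log2 change was -0.47 ± 0.18 (95% interval -0.88 to -0.06, adjusted p = 0.138), a sizeable estimate that did not pass. The rats varied more than for most of the 10 genes, with an SD of 0.37 among NaPB livers and 0.19 among control livers on the log2 scale.

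Apoa2, another HDL protein made by the liver, was the one gene with a positive estimate. It had 236, 188.6, 242 and 188.8 in NaPB livers, against 195.5, 163.6, 192 and 192 in control livers. NaPB replicates 1 and 3 lay above every control, and replicates 2 and 4 within the control range. The change of 0.20 ± 0.11 did not pass (95% interval -0.06 to 0.45, adjusted p = 0.302).

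Apoa4, a large exchangeable apolipoprotein found on triglyceride-rich particles and on HDL, fell the most of the 10. Its scaled intensity was 24.2, 41.9, 34.2 and 16.0 in NaPB livers, against 96.3, 119.9, 115.7 and 79.8 in control livers. The highest NaPB liver thus lay well below the lowest control liver. The means were 29.1 ± 11.3 in NaPB livers and 103 ± 18.5 in control livers (SD, n = 4 each). The log2 change was -1.90 ± 0.28 (95% interval -2.54 to -1.25, limma adjusted p = 0.00458), a 3.72-fold lower mean on the log scale and the 12th most negative of the 10944 genes tested. Leaving out any 1 array gave values between -2.10 and -1.64 and adjusted p between 0.00321 and 0.0173.

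The level of Apoa4 varied between rats of a group more than that of any other of the 10 genes. The SD among NaPB livers was 0.61 on the log2 scale, against 0.27 among control livers, and NaPB replicates 4 and 1 were the lowest. The SD between the 2 features of Apoa4 was at most 0.07 on the log2 scale on any array, far less than that between rats. When single features were fitted, they fell by 1.90 and 1.89 on the log2 scale (adjusted p = 0.00537 and 0.00402). Features of a gene read the same RNA on the same array, so their agreement is no separate evidence, here and below. Whether they carry different probes was not examined.

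Apoa5, which promotes the action of lipoprotein lipase, lies next to Apoa4 in the gene cluster and had 77.0, 57.3, 69.0 and 62.0 in NaPB livers, against 57.1, 71.0, 76.6 and 83.5 in control livers. The groups covered nearly the same range. The change was -0.11 ± 0.14 (95% interval -0.43 to 0.20, adjusted p = 0.633), and the interval excludes a fall as large as that of Apoa4.

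The C apolipoproteins are small proteins of triglyceride-rich particles with opposite roles. Apoc3, which slows the clearance of triglyceride, fell with a small spread. It had 213, 206.5, 211 and 187 in NaPB livers, against 293.6, 320.5, 326 and 268 in control livers. All 4 NaPB livers lay below all 4 control livers. The means were 205 ± 11.9 in NaPB livers and 302 ± 26.7 in control livers (SD, n = 4 each). The log2 change was -0.56 ± 0.09 (95% interval -0.76 to -0.36, adjusted p = 0.00579), a 1.47-fold lower mean on the log scale. Both features fell, by 0.50 and 0.62 on the log2 scale, and without any 1 array the change stayed between -0.62 and -0.52 (adjusted p from 0.00593 to 0.0219).

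Apoc2, the cofactor that lipoprotein lipase needs, had 142, 91.1, 114.6 and 94.1 in NaPB livers, against 135.4, 145, 163 and 131 in control livers. NaPB replicate 1 lay inside the control range and the other 3 NaPB livers below it. The change of -0.40 ± 0.15 (95% interval -0.73 to -0.06) did not pass over all arrays (adjusted p = 0.129). Without NaPB replicate 1 it was -0.52 and passed (adjusted p = 0.0380), the one call among the 10 genes that turned on a single array.

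Apoc1, an inhibitor of lipoprotein uptake and of lipases, was measured by 10 features. Their mean was 284, 231, 248 and 231.5 in NaPB livers, against 273, 307, 288 and 268 in control livers. NaPB replicate 1 again lay among the controls and the other NaPB livers below them. The change was -0.20 ± 0.09 (95% interval -0.40 to 0.01, adjusted p = 0.206). The 10 features gave changes from -0.34 to -0.10, none past the threshold. The SD between these features on one array was 0.08 to 0.14 on the log2 scale, about as large as the SD between rats of 0.14 among NaPB livers and 0.09 among control livers.

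Apoe, the ligand by which remnants bind to liver receptors, had 356, 308, 326 and 277 in NaPB livers, against 334, 390.2, 353 and 329 in control livers. The groups overlapped, with NaPB replicate 1 above 3 of the controls. The change was -0.15 ± 0.10 (95% interval -0.37 to 0.07, adjusted p = 0.355). Apoe lay close to the top of the array's range: its brighter feature reached 86.2% to 89.4% of the brightest named feature on NaPB arrays and 82.3% to 91.1% on control arrays. For Apoc1 these shares ran from 68.2% to 80.5% and for Apoc3 from 50.8% to 78.8%, whereas Apoa4 reached at most 27.5%. Flags for saturated spots were not used here, and the part of such compression in the small changes of the brightest genes was not tested.

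**Figure D2:**
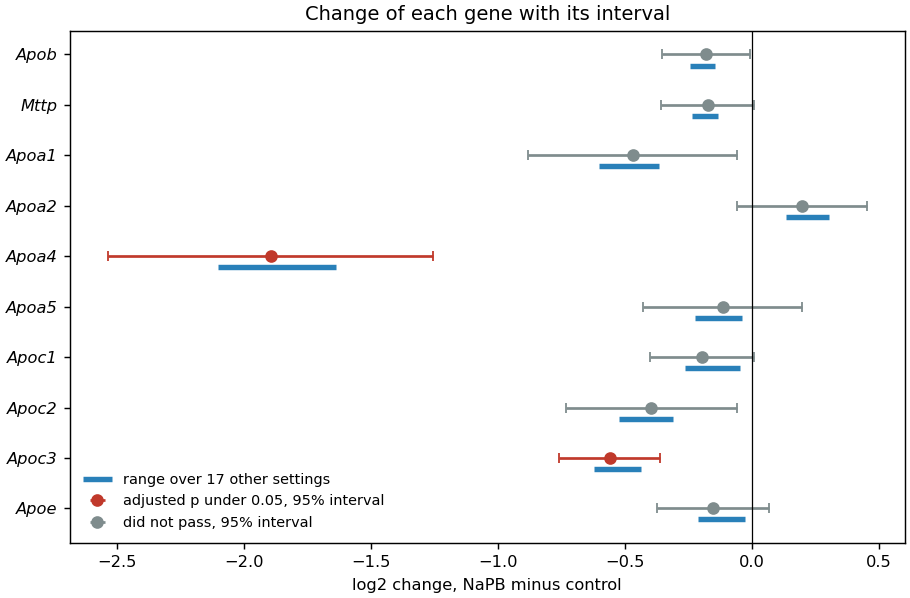
Log2 change (NaPB minus control) of each of the 10 genes with its 95% interval from limma (points and whiskers, red where the adjusted p was under 0.05). The blue bar under each point is the range over 17 other settings of the analysis. Apoa4 at -1.90 and Apoc3 at -0.56 are the red points, and no blue bar crosses 0.

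Counted by feature, 4 of the 28 features fell and none rose, where 3.97% of the 30504 features tested were lower and 9.69% changed in either direction. The 4 were both features of Apoa4 and both of Apoc3. No feature of the 10 genes had a value at the floor set for low intensities. Of the 28 features, 26 had a negative estimate, the exceptions being both features of Apoa2.

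Whether Apoa4 and Apoc3 fell further than the other genes was tested within arrays, on the log2 difference of each pair in the same liver, which leaves the scaling of the array out. A two-sided exact permutation test over the 8 livers was run on 17 pairs, for which the smallest p that 4 against 4 allows is 0.0286. Apoa4 fell further than each of the other 9 genes, by 1.34 ± 0.29 on the log2 scale relative to Apoc3, by 1.43 ± 0.43 relative to Apoa1 and by 2.09 ± 0.35 relative to Apoa2. In each of these 9 pairs all NaPB livers lay below all control livers (exact p = 0.0286, adjusted p = 0.0347 over the 17 pairs). Apoc3 fell further than Apob, Mttp, Apoa2, Apoc1 and Apoe with the same p, by 0.36 ± 0.07 relative to Apoc1 and by 0.41 ± 0.06 relative to Apoe. A difference within arrays does not remove compression of bright spots such as those of Apoe and Apoc1, and its part was not tested. A difference between Apoc3 and Apoa1 (-0.09 ± 0.23, exact p = 0.657), Apoc2 (-0.16 ± 0.13, exact p = 0.286) or Apoa5 (-0.44 ± 0.16, exact p = 0.0571) was not shown. The lipase cofactor Apoc2 and the clearance inhibitor Apoc3 were thus not told apart in the size of their change. Since Apoa4 and Apoc3 were picked for these tests with their changes known, the p-values describe the pairs and are no separate evidence.

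Most of the 10 genes lie in one of 2 clusters, which the reference gene table of Rattus rattus (Rrattus_CSIRO_v1) orders as Apoa1, Apoc3, Apoa4, Apoa5 and as Apoe, Apoc1, Apoc4, Apoc2. In the first, the log2 changes in gene order were -0.47, -0.56, -1.90 and -0.11, so the fall was largest at Apoa4 and its neighbour Apoa5 had one of the smallest estimates of the 10. Of the 2 nearest protein-coding genes on each side, Pafah1b2 was at 0.14 ± 0.06 and Bud13 at -0.16 ± 0.22 (adjusted p = 0.195 and 0.683), and Sik3 and Zpr1 have no feature under these symbols. In the second cluster the changes were -0.15, -0.20, -0.33 and -0.40 in gene order, none of which passed. Apoc4, a minor VLDL protein that lies between Apoc1 and Apoc2, had 72.9, 59.4, 51.1 and 51.9 in NaPB livers, against 70.1, 76.8, 79.6 and 66.0 in control livers. As for Apoc1 and Apoc2, NaPB replicate 1 was the highest NaPB liver, and without it Apoc4 was at -0.43 and passed (adjusted p = 0.138 with all arrays and 0.0426 without this one). The flanking genes Tomm40 and Clptm1 were at 0.02 ± 0.13 and 0.05 ± 0.07 and did not pass (adjusted p = 0.933 and 0.697).

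**Figure D3:**
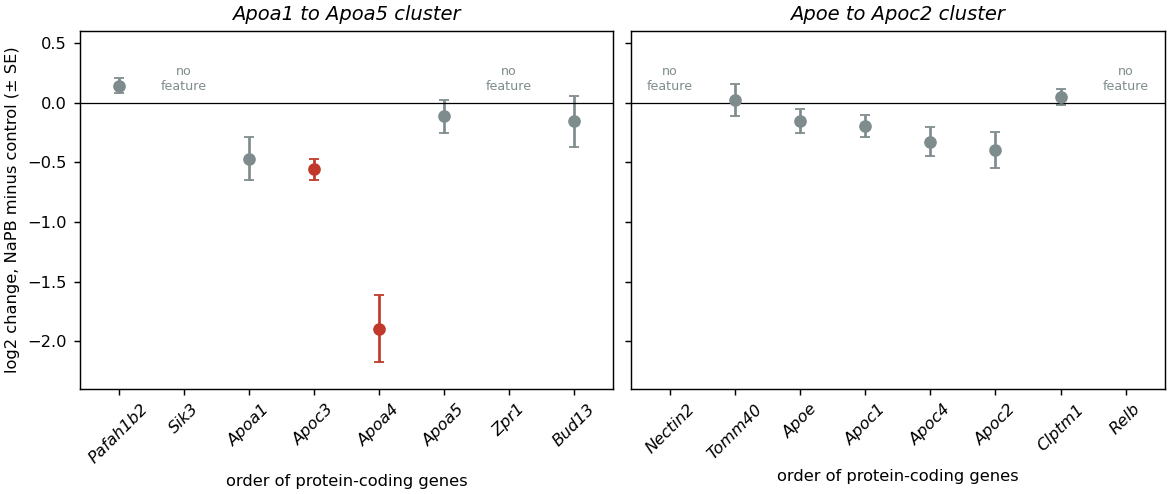
Log2 change ± SE (NaPB minus control, n = 4 each) of the genes of both apolipoprotein clusters and the 2 nearest protein-coding genes on each side, in their order along the chromosome (not to scale). Red marks an adjusted p under 0.05, which holds for Apoc3 and Apoa4, and genes without a named feature are marked as such.

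The genes whose profile over the 8 livers was most like that of Apoa4 were Hsd3b6, Glul and Tle3, by the root mean square difference of log2 values from the control mean, among 9571 genes. The difference from Apoa4 was 0.31 for Hsd3b6, a hydroxysteroid dehydrogenase, 0.45 for Glul, the glutamine synthetase of perivenous hepatocytes, and 0.46 for Tle3, a transcriptional corepressor. Hsd3b6 fell by 1.76 ± 0.30, Glul by 1.65 ± 0.18 and Tle3 by 1.58 ± 0.16 on the log2 scale. Of these, Hsd3b6 had its lowest values in NaPB replicates 4 and 3, and Apoa4 in replicates 4 and 1. The call of Tle3, a dim gene, was lost with a higher floor for low values (-0.55, adjusted p = 0.0502). For Apoc3 the nearest were Hsd3b5, another hydroxysteroid dehydrogenase, at a difference of 0.08, Fetub, the plasma protein fetuin B, at 0.09, and Mat1a, the liver's methionine adenosyltransferase, at 0.09. These fell by 0.59 ± 0.11, 0.59 ± 0.09 and 0.51 ± 0.10 on the log2 scale. The measure of likeness includes the change between groups. Genes picked by it therefore fall about as much as Apoa4 or Apoc3, and their falls are no separate evidence.

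**Figure D4:**
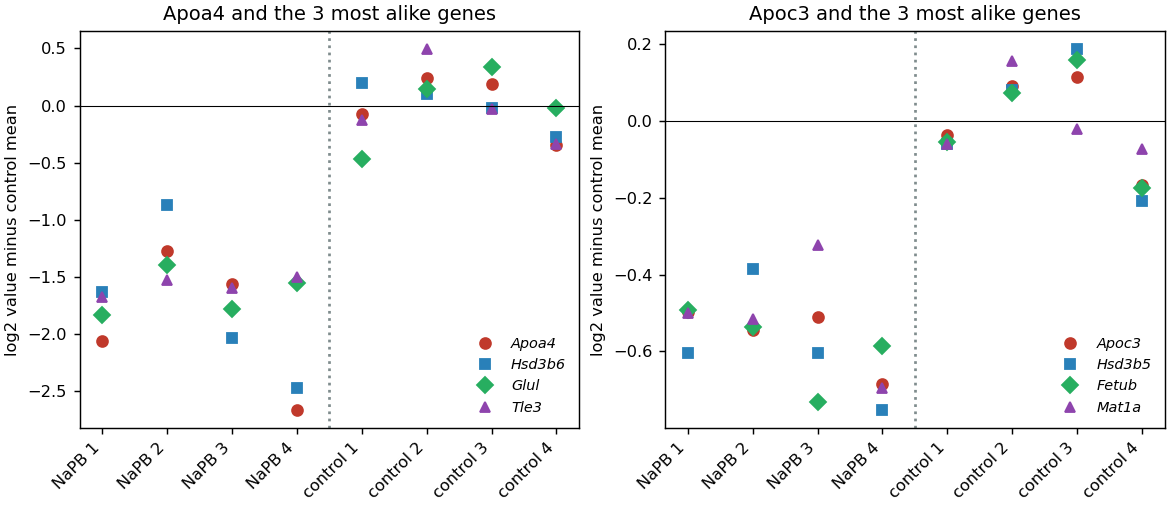
Log2 value minus the mean of the 4 control livers in each of the 8 livers, for Apoa4 (left) and Apoc3 (right), each with its 3 most alike genes. NaPB livers stand left of the dotted line and control livers right of it. All 8 genes lie lower in every NaPB liver than in every control liver. The alike genes were picked on these same values, so their lower NaPB values follow largely from the choice.

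The other genes of the pathway were taken from 6 lists. Of their 88 measured genes, 15 fell (17%) and 3 rose (3.41%), with a median log2 change of -0.11. Over all genes tested the shares were 4.29% lower and 6.16% higher, and over the bright genes above they were 9.34% and 9.89%. Most of the pathway genes were dimmer than those bright genes, which are therefore no matched background for the lists. The lists are small, and none was tested against these shares. The loading and secretion of apolipoprotein B particles involves enzymes that make the lipid cargo and the carriers of the secretory path. Of 24 such genes 4 fell and 1 rose (median -0.07). Dgat2, which makes triglyceride, averaged 19.0 ± 1.53 in NaPB livers and 26.2 ± 1.63 in control livers (SD, n = 4 each) and fell by 0.46 ± 0.09 on the log2 scale (adjusted p = 0.0130). Plin2, a coat protein of lipid droplets, fell by 0.48 ± 0.13 (adjusted p = 0.0483). Cideb, a droplet protein needed to lipidate VLDL, fell by 0.41 ± 0.10 and Lpcat3, which remodels membrane phospholipids, fell by 0.32 ± 0.07; both were named after their values were seen. Sar1b, the GTPase of the coat that exports lipoproteins from the endoplasmic reticulum, rose by 0.27 ± 0.07 (adjusted p = 0.0422). The calls of Plin2, Cideb, Lpcat3 and Sar1b were each lost when any 1 of at least 6 of the arrays was left out (adjusted p up to 0.104, 0.0947, 0.0878 and 0.107). That of Sar1b was also lost with the arrays at the same median (adjusted p = 0.103), and that of Plin2 with no further scaling (0.0509).

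Of 12 other apolipoproteins and lipoprotein-bound proteins 1 fell and none rose (median -0.18). It was Lcat, the enzyme that esterifies cholesterol on HDL and is activated by apolipoprotein A-I. Its scaled intensity averaged 26.6 ± 4.14 in NaPB livers and 41.5 ± 4.06 in control livers (SD, n = 4 each), and it fell by 0.65 ± 0.12 on the log2 scale (adjusted p = 0.0129). Apof, a lipid transfer inhibitor named after its values were seen, had 6.62, 52.2, 33.9 and 43.3 in NaPB livers, against 59.7, 61.6, 53.3 and 57.1 in control livers. NaPB replicate 1 stood far below the rest. The groups did not overlap, but the change of -1.12 ± 0.57 did not pass (adjusted p = 0.248).

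Among 6 measured lipases and regulators 1 rose and 1 fell (median 0.00029). Lpl, lipoprotein lipase, is made mainly outside the adult liver and was dim here. It had mean intensities of 0.14 ± 0.04 in NaPB livers and 0.04 ± 0.02 in control livers (SD, n = 4 each), and 24 of its 40 values in control livers (10 features, 4 livers) lay at the floor of 0.03. All 10 of its features rose, by 1.85 ± 0.30 for their mean (adjusted p = 0.00655), but with a floor of 0.1 the change was 0.51 and did not pass (adjusted p = 0.0515). Lipc, the hepatic lipase, averaged 6.94 ± 0.36 in NaPB livers and 9.53 ± 0.60 in control livers and fell by 0.46 ± 0.08 on the log2 scale (adjusted p = 0.00800).

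Of the 10 measured lipoprotein receptors and uptake genes, 4 fell and none rose (median -0.12). Lrp5, a coreceptor of Wnt signalling, averaged 1.06 ± 0.09 in NaPB livers and 1.80 ± 0.26 in control livers and fell by 0.77 ± 0.11 (adjusted p = 0.00463). Lrp1, a remnant receptor that binds apolipoprotein E, fell by 0.79 ± 0.19 (adjusted p = 0.0312), a call that was lost without any 1 control liver (adjusted p up to 0.0849). Scarb1, the HDL receptor, fell by 0.55 ± 0.10 and Lsr, a remnant receptor, fell by 0.28 ± 0.07 (adjusted p = 0.0135 and 0.0429); both were named after their values were seen, and Lsr was lost without any 1 array other than NaPB replicate 3 (up to 0.102). In sterol and phospholipid export 1 of 5 fell and none rose (median -0.22). It was Abca1, which loads lipid onto apolipoprotein A-I, at -0.29 ± 0.07 (adjusted p = 0.0398), and its call was lost without any 1 array (up to 0.105).

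Of 31 measured regulators of apolipoprotein and lipid genes, most of them transcription factors but including the coactivator Ppargc1b and the membrane proteins Insig1 and Insig2, 4 fell and 1 rose (median -0.12). Hnf4a, the nuclear receptor that many apolipoprotein promoters require, averaged 0.58 ± 0.04 in NaPB livers and 0.39 ± 0.05 in control livers (SD, n = 4 each) and rose by 0.57 ± 0.10 (adjusted p = 0.0123). Foxa3, a forkhead factor of hepatocytes, fell by 1.22 ± 0.25 (adjusted p = 0.0179, and 0.0717 without a filter on low values), and Prox1, a homeobox repressor of Hnf4a activity, fell by 0.92 ± 0.21 (adjusted p = 0.0289) at levels near the floor. The call of Prox1 was lost without NaPB replicate 3 or 4 or control replicate 3 (adjusted p up to 0.0694). Rxra, the partner of many nuclear receptors, named after its values were seen, fell by 0.57 ± 0.11, and Nr1i3, which encodes the phenobarbital-responsive receptor CAR, fell by 0.70 ± 0.18 (adjusted p = 0.0160 and 0.0390). The call of Nr1i3 was lost without any 1 array other than NaPB replicate 2 and control replicate 4 (up to 0.0901).

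Several factors with known roles at Apoa4 or its cluster did not pass. Creb3l3, a liver factor that activates Apoa4 in mice, had means of 37.3 ± 5.61 in NaPB livers and 39.2 ± 3.62 in control livers (change -0.08 ± 0.12, 95% interval -0.36 to 0.20, adjusted p = 0.724). Ppara, the receptor that regulates fatty acid oxidation, was at -0.06 ± 0.24 (adjusted p = 0.899), with a wide interval from -0.62 to 0.49. Nr1h3 (LXR alpha) was at -0.12 ± 0.08, Nr1h4 (FXR) at 0.18 ± 0.21 and Nr1d1 (Rev-erb alpha, a repressor of Apoc3 in rodents) at 0.08 ± 0.13, with adjusted p = 0.414, 0.612 and 0.735. Nr1i2 (PXR) was at -0.43 ± 0.13 (adjusted p = 0.0760), and it passed with the arrays at the same median (0.0386). These are transcript levels and do not give the activity of the receptors.

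**Figure D5:**
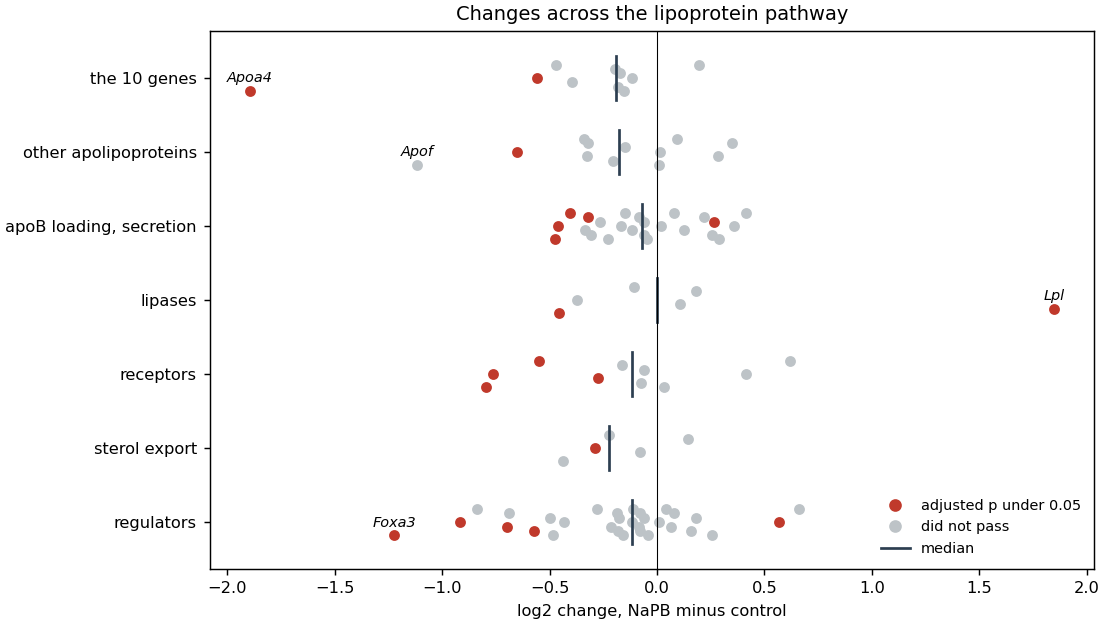
Log2 change (NaPB minus control) of the measured genes of each list, 1 point per gene, with the 10 genes in the top row. Red points had an adjusted p under 0.05, grey points did not, and the vertical bar is the list's median. Apoa4 at -1.90 is the most negative point and Lpl at 1.85, a value that depends on the floor of 0.03 (0.51 with a floor of 0.1), is the most positive, and vertical scatter within a row only keeps points apart.

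Markers of cell types were measured beside these changes. The 10 hepatocyte markers, led by haptoglobin (Hp) and transthyretin (Ttr), had a summed level of 1509 to 1766 in NaPB livers and 1661 to 1854 in control livers, and the 2 that fell were Ahsg and Cps1. Of the enterocyte markers, the intestine being the other source of Apoa4, 9 of 10 were named on the array and summed to 7.32 to 8.48 in NaPB livers and 7.93 to 8.65 in control livers; Vil1, Cdx2 and Slc5a1 lay at the floor on all arrays, and 1 of 6 measured markers rose and 1 fell. Macrophage markers, whose cells also make Apoe, summed to 54.1 to 70.5 in NaPB livers and 58.5 to 68.4 in control livers, and 1 of 9 fell. The sums were lower in every NaPB liver than in every control liver for stellate cells (6.85 to 8.26, against 8.61 to 12.7, with 3 of 9 measured markers lower), for endothelium (14.7 to 16.8, against 18.2 to 20.7, with 1 of 8 lower), for adipocytes (3.61 to 4.42, against 4.45 to 5.14, with 1 of 4 lower) and for red blood cells (28.5 to 49.9, against 53.5 to 58.2, with none of 5 past the threshold). The bile duct sum was higher in every NaPB liver (0.92 to 1.09, against 0.42 to 0.51, with Epcam higher among 4 measured). Epcam, its brightest gene, averaged 0.76 in NaPB livers and 0.25 in control livers. The other measured markers, Krt19, Krt7 and Spp1, lay near the floor, overlapped between groups and did not pass. Sums of pancreatic and lymphocyte markers overlapped and were at most 1.04. The brightest genes weigh most in such sums. Over all genes tested, 4.29% were called lower and 6.16% higher, and in 8.36% all NaPB livers lay below all control livers. The stellate markers that fell were Col3a1, Reln and Pdgfrb, and Col3a1, the brightest, averaged 4.00 in NaPB livers and 5.73 in control livers. Dcn and Acta2 were at 0.25 and 0.06 on the log2 scale, and Col1a1, Col1a2, Lrat and Des at -0.43, -0.22, -0.35 and -0.20. None of these passed. Among endothelial markers only Kdr passed, averaging 9.63 in NaPB livers and 12.8 in control livers. Pecam1, Lyve1 and Fcgr2b were at -0.02, -0.001 and -0.03 on the log2 scale, and Cdh5 and Emcn at 0.06 and 0.13. Clec4g and Vwf were at -0.26 and -0.35. The adipocyte marker that fell, Cidec, averaged 1.71 against 2.47, while Fabp4 had a positive estimate. Cfd and Lipe were at -0.05 and -0.06 on the log2 scale and did not pass. The adipocyte markers Plin1, Lep and Retn lay at the floor on all arrays, so this sum rests mainly on Cfd and Cidec. The part of these shifts in the apolipoprotein values was not tested.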

How the data were processed

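Total RNA of 8 rat livers was labelled with Cy3 and hybridized to 1 Agilent array each, per the labels' protocols. The deposited values are linear spot intensity. The submitters' processing notes name Agilent Feature Extraction 10.7. How the authors treated background, spot flags and scaling is not given in the sources used. Of 62976 features, 45904 carried 1 symbol and 17072 none, and unnamed features were not used. Symbols are those of the probe table. Rattus rattus is the labelled organism.

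Intensities were scaled so that the 75th percentile over named features was 1 on every array. A floor of 0.03 was then set, and a gene's value was the mean log2 intensity over its features. The percentage of named features at this floor was 31.8 to 34.5. A gene was tested if 3 or more arrays of either diet exceeded the floor. NaPB and control were compared with limma 3.58.1 (lmFit, eBayes) in R 4.3.3, two-sided, with Benjamini-Hochberg adjustment over all 10944 genes. The procedure was tested on simulated data, in which the changed genes were not dim and changed more than most genes called here. That test therefore does not cover small changes or dim genes. The number of arrays limits the precision. No slide, date or batch is given. Same-numbered rats of the groups did not deviate together (correlations -0.13 to 0.08), and the numbers were not used as pairs.

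The genes, lists, settings and naming rule were chosen with earlier results of these data known. All 10 genes are named. Each list gives its 2 largest rises and 2 largest falls past the threshold, and a fixed set of receptors and factors is named in any case. From each marker list the sums and at most 2 bright genes are given by the rule. Further markers are named where they passed, lay at the floor or show what a sum rests on. Apoa4 and Apoc3 are each given with the 3 most alike genes, among tested genes with a proper symbol and no gene value at the floor. Other genes outside the rule are marked. Other settings were quantile normalization, equal medians, no further scaling, a floor of 0.1, a filter at the median level, no filter, the brightest feature of a gene, a replicate block, a trended and robust variance prior, and leaving out each array. No sequences were used. Plots were made in Python 3.11.15 (matplotlib 3.10.9).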

Additional observations from a re-analysis of the deposited data

Results flagged for a closer look

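In 5 of 86 groups of 4 livers (43 named genes, both diets), 1 liver stood apart by Dixon's test at the 95% level, which flags about 1 group in 20 by chance. Of the 10 genes this concerned Apoa2, with a scaled intensity of 163.6 in control replicate 2 against 192 to 195.5 in the other controls (a gap of 0.899 of the range). Lpl was apart in NaPB replicate 4, at 0.0838 against 0.155 to 0.162 (0.936 of the range), and in control replicate 4, at 0.0651 against 0.03 to 0.0326 (0.894). Lrp1 was at 0.815 in NaPB replicate 3, against 1.40 to 1.48 in the other NaPB livers (0.910). Nr1h3 was at 13.2 in NaPB replicate 4, against 14.5 to 14.7 (0.866).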

How the results depend on the processing

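Over 17 other settings no estimate of the 10 genes changed sign. Apoa4 ranged from -2.10 to -1.64 and Apoc3 from -0.62 to -0.44, past the threshold each time (adjusted p up to 0.0311 and 0.0239), and 2 or 3 of the 10 genes were lower and 0 higher. Between 3 and 6 of their features were lower. The count of lower genes over the whole array was 470; it was 760 with arrays at the same median, 278 without a filter on low values, and 240 to 426 when 1 array was left out, while higher genes numbered 674 and then 385 to 556. Lower genes in the pathway lists numbered 15; 9 without the filter, which tests 16945 genes, and 7 to 11 with 1 array left out. With the replicate number as a block, which costs degrees of freedom, 354 genes were higher and 229 lower, 1 higher and 4 lower in the pathway lists, and Apoa4 and Apoc3 still passed. With it the calls of Dgat2 (adjusted p = 0.0593), Lipc (0.0561), Hnf4a (0.0542) and Scarb1 (0.0615) were lost, as were those of Sar1b, Plin2, Cideb, Lpcat3, Lrp1, Lsr, Abca1, Prox1 and Nr1i3. Signs turned for 3 genes that passed nowhere: Ppara (0.0050 with the brightest feature, -0.21 to 0.17 with 1 array left out), Nr1d1 (-0.025 with the brightest feature, -0.027 to 0.14 with 1 array left out) and Creb3l3 (-0.15 to 0.026 with 1 array left out); the cause was not tested. In 83 of 727 values of named genes a call was lost. Such losses included Lrp1, Prox1 and Nr1i3 without the filter on low values, and Prox1 and Lsr with the brightest feature. The 4 arrays a group and the unknown saturation of the brightest spots limit small changes.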
